A study of Homo sapiens with 6 samples.

Results

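The heat shock chaperones and their co-chaperones were examined in cells of the human breast cancer line MDA-MB-231, which lacks hormone receptors and HER2 amplification, after transfection with a vector carrying DNAJC12 or with the empty vector. The set was chosen by name from the gene count table: 37 symbols, which matched 38 of the 58735 rows, since the table gives the symbol HSPA14 to a pair of gene identifiers. Of these rows, 37 passed the filter on low counts and were tested among 14520 genes. The row that did not pass was CRYAB, the small heat shock protein alpha B-crystallin, with 3 counts in empty vector replicate 2 and 0 in the other libraries. Total RNA was sequenced from 3 overexpression libraries and 3 empty vector libraries, so the control cells carry the vector backbone without DNAJC12. Whether these libraries stem from separate cultures, or from 1 transfection or clone, is not stated, and neither is the time of harvest, so p-values measure only the spread between libraries, which may be technical.

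Several heat shock proteins, those of the HSP70 family among them, bind unfolded stretches of other proteins and release them in cycles driven by ATP. HSP70 proteins take clients from J-domain proteins, the class to which DNAJC12 belongs, while nucleotide exchange factors such as the BAG proteins and HSPH1 reset the cycle. Adaptors such as STIP1 pass clients on to HSP90, where CDC37, AHSA1, PTGES3 and the FKBP immunophilins act, and STUB1 directs clients to degradation. Mitochondria have their own set: HSPA9 (mortalin) pulls proteins in and folds them, HSPD1 and HSPE1 form the folding chamber, and TRAP1 is the HSP90 of that compartment. Tumour cells are known to rely on high HSP70 and HSP90 levels. Under proteotoxic stress many of these genes are induced together by the factor HSF1, which binds repeated GAA units in their promoters.

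The transfected gene matched the labels: DNAJC12 had 492 to 523 counts per library with the DNAJC12 vector and at most 1 count with the empty vector. Library totals ran from 17967283 to 18887497 counts. Of 5 genes that are abundant in MDA-MB-231 (VIM, CD44, AXL, MSN and ANXA1), all were tested, with a summed level of 697 to 963 FPKM (reads scaled to gene length and library size, as the authors deposited them). The receptor genes ESR1 and PGR had 0 to 2 and 0 to 3 counts per library. Of the other genes listed as low or absent in this line, ERBB2 had 5.86 to 11.7 FPKM and EPCAM 1.71 to 4.84 FPKM. GATA3 had 1.10 to 1.58 FPKM and CDH1 0.391 to 0.815 FPKM. Of 7 markers of leukocytes, endothelium, fibroblasts and hepatocytes, 5 had a count with DNAJC12 and 5 with the empty vector, not all the same. PTPRC had counts only with DNAJC12 and DCN only with the empty vector, and CD3E was at 0 in every library. The summed level of the 7 was 0.964 to 1.38 FPKM with DNAJC12 and 3.00 to 3.50 FPKM with the empty vector. It came mostly from PECAM1 with the empty vector, and from PECAM1 and COL1A1 with DNAJC12. PECAM1 itself was called lower with DNAJC12 (log2 fold change -1.99, edgeR, adjusted p = 0.0125). The part of these markers in the results was not tested.

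Promoter windows of the members were searched for exact forms of the letters that HSF1 recognises. In the RefSeq promoter table (GRCh38.p14, 250 bases before to 50 after each start), 30 of the 37 symbols had a window, and BAG4, CRYAB, FKBP4, HSF1, HSPA14, ST13 and STUB1 had none. A run of 3 alternating units was searched on both strands, that is GAANNTTC followed after a gap of 2 bases by GAA, or TTCNNGAA followed in the same way by TTC. It was present in 6 of 44 member windows (13.6%), against 0.490% of all 35116 windows. These windows belonged to HSPA8, HSP90AA1, HSP90AB1, HSPD1, HSPA6 and CHORDC1. The pair GAANNTTC or TTCNNGAA, which lies inside every such run, was present in 14 of 44 member windows (31.8%) against 13.5% of all. The 8 stretches that hold these runs are printed 5′ to 3′ on the strand of the gene, with the runs in capitals.
HSPA8, distal run: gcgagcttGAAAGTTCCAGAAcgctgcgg
HSPA8, proximal run: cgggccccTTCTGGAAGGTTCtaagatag
HSP90AA1: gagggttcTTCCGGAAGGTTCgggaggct
HSP90AB1, first run: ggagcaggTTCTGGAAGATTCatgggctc
HSP90AB1, second run: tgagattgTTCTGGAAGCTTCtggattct
HSPD1: gcattTTCTGGAAAGTTCTGGAAccgag
HSPA6: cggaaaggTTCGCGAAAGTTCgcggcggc
CHORDC1: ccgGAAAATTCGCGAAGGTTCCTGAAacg

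The HSPA8 runs lie at chr11:123062346-123062374 and chr11:123062171-123062199 on the minus strand, both inside an exon of a GENCODE 29 transcript of HSPA8 that begins farther upstream. The HSP90AA1 run (chr14:102087112-102087140, minus strand) and the CHORDC1 run (chr11:90223084-90223112, minus strand) also overlap an exon of their own gene. The HSP90AB1 runs (chr6:44247770-44247798 and chr6:44247823-44247851, plus strand) lie in an intron of the annotated gene and overlap no exon. The HSPA6 run (chr1:161524458-161524486, plus strand) lies upstream of the gene, and the HSPD1 run (chr2:197500063-197500090, minus strand) overlaps exons of both HSPD1 and the divergent gene HSPE1. HSPA9 had the pair TTCNNGAA across its start and no run of 3 units. A match is a description of these letters and not evidence of binding.

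Per kilobase of gene, the members covered more than 3 orders of magnitude. HSP90AB1, the constitutive cytosolic HSP90, had the highest FPKM in every library, at 446 to 624 FPKM. HSPA8, the constitutive HSP70, had 270 to 469 FPKM, the next highest level in every library except overexpression replicate 2. There HSPB1 was level with it (280 FPKM each). Both HSP90AB1 and HSPA8 were above 99% of tested genes by mean FPKM. Their order depends on the scaling to gene length, which was 4849 bases for HSPA8, while its longest transcript has 2463. By counts alone HSPA8 stood above HSP90AB1 in overexpression replicate 2 (21525 against 21074). The same held in empty vector replicates 1 (42886 against 35073) and 3 (31497 against 30276), and HSP90AB1 stood higher in the other libraries. By mean FPKM the next levels were those of HSPB1, the small heat shock protein HSP27 (133 to 280 FPKM), CDC37, which brings kinases to HSP90 (91.7 to 156 FPKM), and HSP90AA1, the inducible HSP90 (44.6 to 140 FPKM). HSPB1 stood above CDC37 in all 6 libraries, and HSP90AA1 stood above CDC37 in replicate 1 of each group and below it in the others. At the other end, HSPA6, the strictly stress-inducible HSP70, had 0.455 to 0.850 FPKM, HSPA12A, a distant HSP70 relative, 0.202 to 0.668 FPKM, and HSPA2, the HSP70 of the testis, 0.0267 to 0.279 FPKM. HSPA1A and HSPA1B, the inducible HSP70 pair, were at 6.39 to 9.14 and 17.4 to 28.2 FPKM. All members together took 0.742, 0.543 and 0.673% of counts in overexpression replicates 1 to 3 and 0.848, 0.719 and 0.739% in the empty vector libraries. The ranges overlap only through overexpression replicate 1. HSPA8, HSP90AB1 and HSP90AA1 supplied 45.9 to 51.3% of the members' counts with DNAJC12 and 53.6 to 59.1% with the empty vector.

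**Figure D1:**
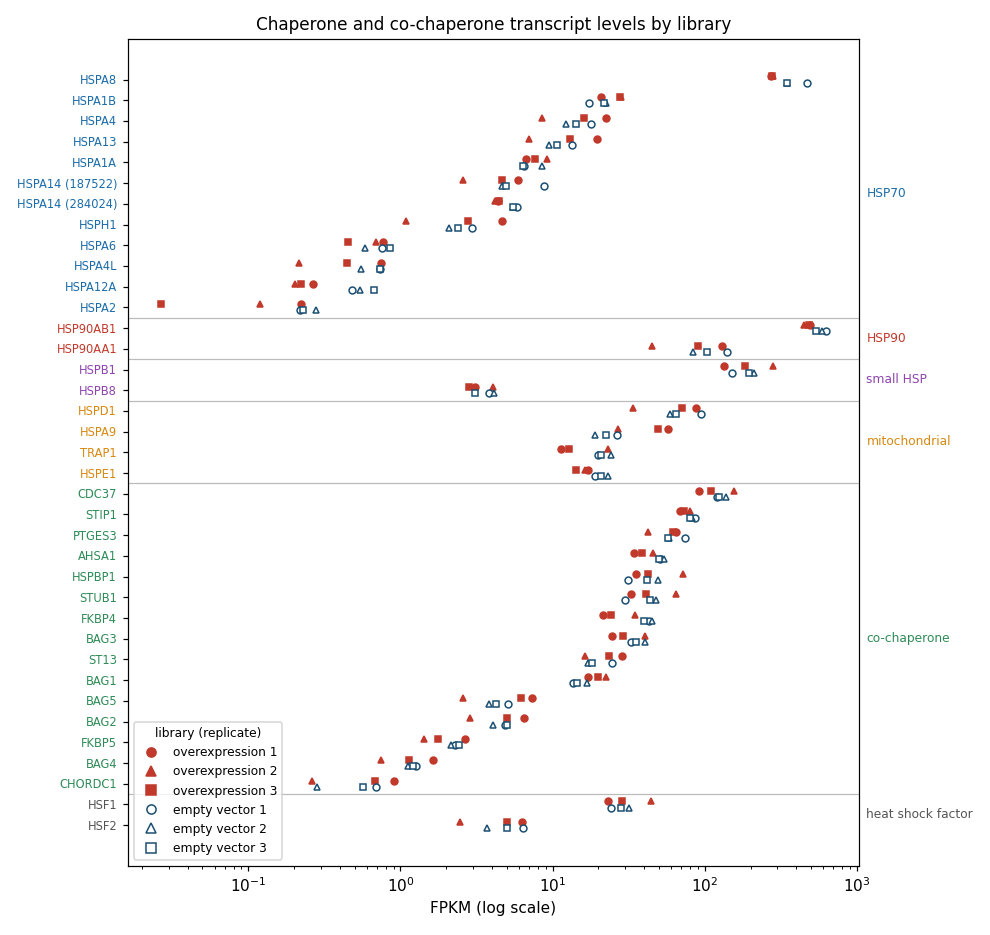
FPKM (log scale) of the 37 tested chaperone and co-chaperone rows in each of the 6 libraries, grouped by role; filled red symbols are overexpression and open blue symbols empty vector libraries, and the shape gives the replicate. HSP90AB1 lies highest in each library, HSPA9 lies to the right of the empty vector libraries with DNAJC12, and overexpression replicate 2 (triangles) lies far to the left for members such as HSPH1 and HSP90AA1 and to the right for HSPB1.

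No member passed the test between the groups. By edgeR (quasi-likelihood, Benjamini-Hochberg over all tested genes) 0 of 37 member rows had an adjusted p under 0.05, against 1.25% of all genes (0.585% higher and 0.661% lower), and the smallest adjusted p of a member was 0.0619. Without adjustment, 1 member was higher and 3 were lower at a p under 0.05, together 10.8% of the members against 14.1% of all genes (7.25% higher and 6.86% lower). The DESeq2 Wald test called HSPA9 higher and HSPA12A lower, 5.41% of the members against 3.13% of all genes. The fitted log2 fold change, overexpression over empty vector, was below 0 for 22 of 37 members (59.5%), against 45.1% of all tested genes, and the median was -0.14 against 0.05 over all genes. The groups did not overlap for 10 members (27.0%, against 20.1% of all genes). Of these, 8 lay lower with DNAJC12 (21.6%, against 10.8%) and 2 higher (5.41%, against 9.26%). The 8 were HSPA8, HSPA12A, 1 HSPA14 row, HSP90AB1, HSPE1, FKBP4, AHSA1 and STIP1, and the 2 were HSPA9 and BAG1.

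**Figure D2:**
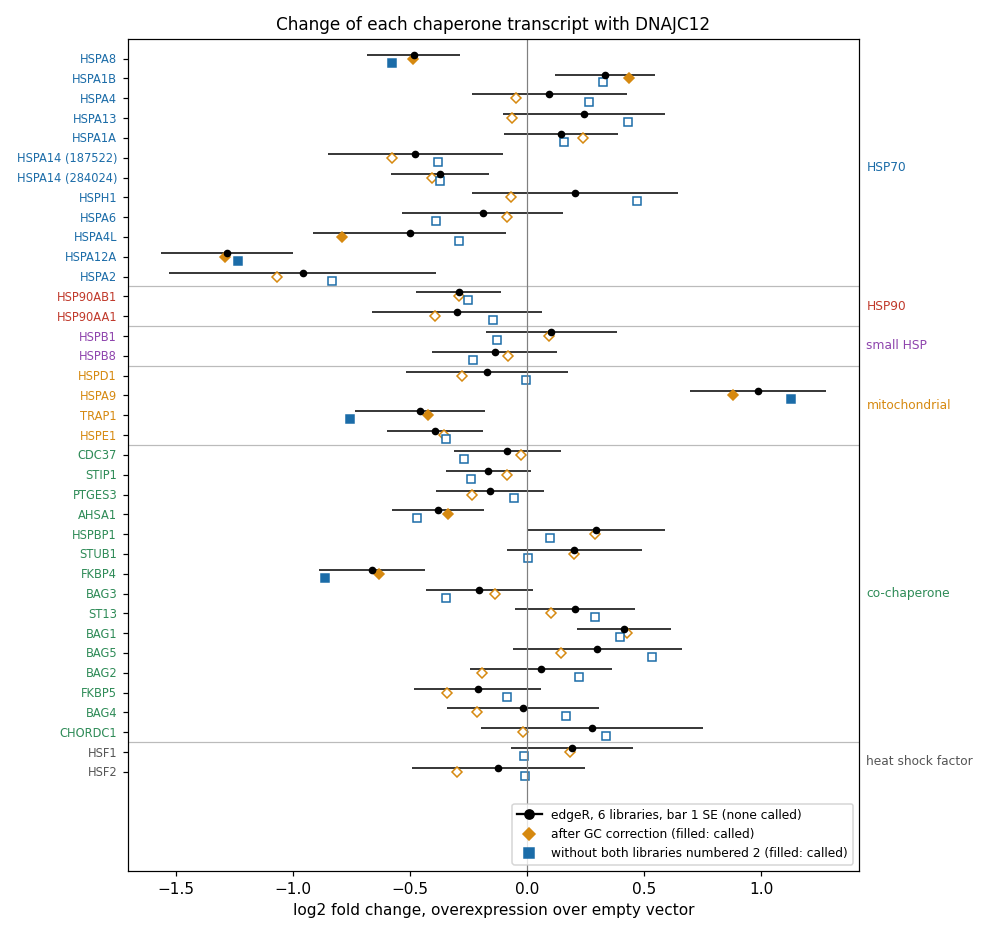
Log2 fold change (overexpression over empty vector) of each tested member by role. Black points are the edgeR fit on 6 libraries with bars of 1 SE, orange diamonds the fit after GC correction and blue squares the fit without both libraries numbered 2, filled where the adjusted p was under 0.05; HSPA9 lies farthest to the right and HSPA12A farthest to the left in each.

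The members split by base composition in 1 library. Overexpression replicate 2 had few counts for AT-rich members and many for GC-rich ones. Of the 16 member rows whose longest transcript has under 45% GC, 15 were lower in replicate 2 than the mean of overexpression replicates 1 and 3, with a median gap of -1.10 on the log2 CPM scale (CPM, counts scaled to TMM-normalised library sizes), and all 11 rows with 55% GC or more were higher, with a median gap of 0.62. Over all tested genes of the same classes the medians were -0.93 and 0.70 in the same library. Empty vector replicate 2 went the same way with smaller gaps, at -0.35 and 0.24 for the members. Across the 37 members the gap and the GC content had a Pearson r of 0.87, against 0.76 over 14518 genes; the points share 3 libraries and are given as a description. HSPH1, an exchange factor for HSP70 with 40.0% GC, shows the extreme, at 39.5, 9.17 and 23.7 CPM in overexpression replicates 1 to 3 against 25.2, 17.5 and 20.1 CPM with the empty vector. The difference between groups was smaller than that spread (log2 fold change 0.20 ± 0.44 SE).

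**Figure D3:**
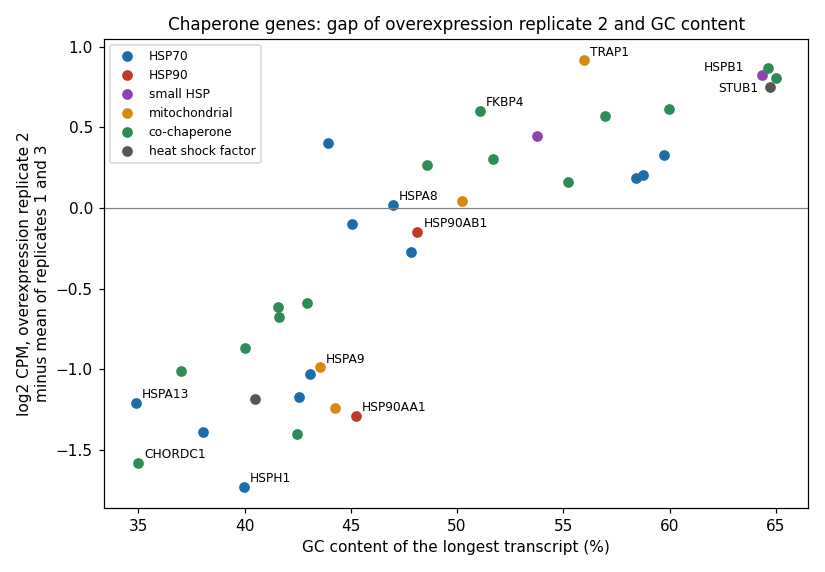
Gap between overexpression replicate 2 and the mean of replicates 1 and 3 (log2 CPM) against the GC content of the longest transcript, 1 point per tested member, coloured by role. Points rise from HSPH1 and CHORDC1 at the lower left to HSPB1 and STUB1 at the upper right; HSPA8 lies near 0.

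After a correction for GC content in each library, 8 of 37 members were called (21.6%, against 17.3% of all genes), and without both libraries numbered 2 there were 5 (13.5%, against 18.7%). Over both directions together, the members' share of calls was near that of all genes in both fits. The 5 were HSPA9, higher, and HSPA8, HSPA12A, FKBP4 and TRAP1, lower. All 5 were also called after GC correction, together with HSPA1B (log2 fold change 0.43, adjusted p = 0.0498), AHSA1 (-0.34) and HSPA4L (-0.79). By direction, GC correction gave 5.41% of members higher (against 8.81% of all genes) and 16.2% lower (against 8.45%). Without both libraries numbered 2 these were 2.70% (against 10.3%) and 10.8% (against 8.41%). Without overexpression replicate 2 alone, HSPA9 and BAG5 were called higher and HSPA12A, FKBP4, TRAP1 and AHSA1 lower, 16.2% of the members against 22.5% of all genes. Leaving out any other single library gave no called member, but those fits called only 0.168 to 1.68% of all genes.

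HSPA9, the mitochondrial HSP70, had the largest positive fold change of the set. It had 477, 223 and 412 CPM in overexpression replicates 1 to 3 and 220, 157 and 185 CPM in the empty vector libraries. All 3 overexpression libraries lay above all 3 controls, replicate 2 by a narrow margin. The means were 371 ± 132 and 187 ± 31.3 CPM (SD, n = 3). The fitted difference was 0.99 ± 0.29 SE (log2) and did not pass the edgeR test (adjusted p = 0.157). The gene (ENSG00000113013, chr5:138553756-138575724 in GRCh38, minus strand) has 43.5% GC, and after GC correction its values were 371, 296 and 377 against 201, 180 and 187 CPM (log2 fold change 0.88, adjusted p = 0.00112). It was 1.13 without both libraries numbered 2 (adjusted p = 2.63e-07) and ran from 0.76 to 1.25 over the fits without 1 library. Of the 50-base stretches of its longest transcript, 3.96% also occur in its pseudogene HSPA9P1.

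The other 3 mitochondrial chaperones had log2 fold changes below 0. HSPD1, the HSP60 subunit of the folding chamber, had 378, 144 and 304 CPM with DNAJC12 and 405, 249 and 274 CPM without, a log2 fold change of -0.17 ± 0.34 SE. Its partner HSPE1 (HSP10) had 34.4, 32.4 and 28.6 CPM against 38.1, 45.7 and 41.5 CPM, below every control (-0.39 ± 0.20 SE, adjusted p = 0.434). TRAP1 had 59.9, 120 and 67.6 CPM against 105, 126 and 109 CPM, so replicates 1 and 3 were low and replicate 2 lay within the controls (-0.46 ± 0.28 SE, adjusted p = 0.507). Without both libraries numbered 2 its value was -0.76 (adjusted p = 0.0013); 24.4% of its stretches are shared with DNASE1 on the other strand. HSPA9 and HSPD1 have nearly the same GC content (43.5 and 44.2%), and their ratio was compared within libraries after the values were seen: HSPA9 stood at 0.649, 0.801 and 0.698 of HSPD1 by FPKM with DNAJC12 and at 0.279, 0.324 and 0.347 with the empty vector. No library of one group reached the range of the other. The ratio holds the HSPA9 values already given, so it is not separate evidence. Ratios of other members were computed as well, and those without HSPA9 overlapped between groups, such as FKBP4 to FKBP5. HSPD1 shares 24.8% of its 50-base stretches with copies elsewhere and HSPE1 shares 41.7% with overlapping genes, HSPD1 and HSPE1-MOB4 among them, so the levels of both are uncertain.

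Among the cytosolic HSP70 genes, HSPA8 lay below the controls in every library and the inducible pair did not. HSPA8 (ENSG00000109971, chr11:123057489-123063230, minus strand) had 1331, 1361 and 1354 CPM with DNAJC12 and 2301, 1684 and 1678 CPM with the empty vector. The overexpression libraries were almost equal, all below the controls, and empty vector replicate 1 stood highest. With means of 1349 ± 15.8 and 1888 ± 358 CPM (SD, n = 3), the log2 fold change was -0.49 ± 0.20 SE, which did not pass (edgeR, adjusted p = 0.319). Without empty vector replicate 1 it was -0.33 (adjusted p = 0.656), and after GC correction -0.49 (adjusted p = 0.034). HSPA8 transcripts share 15.4% of their 50-base stretches with genes elsewhere, its pseudogenes among them.

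HSPA1B had 53.3, 71.2 and 71.5 CPM with DNAJC12 and 44.4, 56.6 and 54.7 CPM without, or 0.33 ± 0.21 SE on the log2 scale. HSPA1A had 16.9, 22.8 and 19.3 CPM against 16.4, 21.1 and 15.9 CPM (0.14 ± 0.24 SE). These neighbours on chromosome 6 share 71.4% (HSPA1B) and 72.6% (HSPA1A) of their 50-base stretches, so the division of reads between them is uncertain. Summed, they had 70.2, 93.9 and 90.8 CPM against 60.7, 77.7 and 70.6 CPM (0.29 ± 0.21 SE, adjusted p = 0.591), with overexpression replicate 1 inside the control range. HSPA6, which is nearly silent without heat shock, stayed at 1.10 to 1.85 CPM with DNAJC12 and 1.39 to 2.02 CPM without (-0.19 ± 0.34 SE), and 45.5% of its stretches are shared with its neighbour HSPA7.

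HSPA12A had the smallest p of all members at a very low level. It had 3.21, 2.40 and 2.66 CPM (64, 38 and 51 counts) with DNAJC12 and 5.79, 6.45 and 7.94 CPM (108, 116 and 149 counts) with the empty vector. The groups did not overlap, and the log2 fold change, the only one of a member past 2-fold, was -1.28 ± 0.28 SE (edgeR, adjusted p = 0.0619). The gene (ENSG00000165868, chr10:116671192-116850236, minus strand) shares 10.5% of its stretches with genes that overlap it on the other strand, and the strand setting of the counting is not known here. It has 47.9% GC, and after the correction its value was -1.29 (adjusted p = 0.00332). HSPA14, which binds ribosomes, was counted under 2 overlapping identifiers. The row ENSG00000284024 had 21.7, 20.5 and 22.1 CPM against 29.1, 26.9 and 27.3 CPM, without overlap (-0.37 ± 0.21 SE), and the row ENSG00000187522 had -0.48 ± 0.37 SE. Their division is uncertain, and neither passed (adjusted p = 0.471 and 0.623). The exchange factor HSPA4 (0.09), its relative HSPA4L (-0.50), the microsomal HSPA13 (0.24) and HSPA2 (-0.96) overlapped between groups.

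Both cytosolic HSP90 genes had values below 0. HSP90AB1 had 1480, 1332 and 1469 CPM with DNAJC12 and 1882, 1748 and 1613 CPM with the empty vector. The groups did not overlap (-0.29 ± 0.18 SE, adjusted p = 0.518), and the log2 fold change kept between -0.35 and -0.24 over all 18 alternatives without being called in any. HSP90AA1 had 690, 235 and 478 CPM against 744, 442 and 542 CPM. Here replicate 2 of each group was lowest, and the fold change (-0.30 ± 0.36 SE) turned to 0.02 without overexpression replicate 2. Of HSP90AA1 and HSP90AB1, 17.5 and 18.8% of 50-base stretches occur elsewhere, mostly in their pseudogenes.

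The HSP90 co-chaperones whose groups did not overlap, FKBP4, AHSA1 and STIP1, all lay lower with DNAJC12. FKBP4, the immunophilin FKBP52 that serves steroid receptors, had 112, 181 and 127 CPM with DNAJC12 and 226, 233 and 206 CPM without. All overexpression libraries were below the controls, replicate 2 nearest to them. The means of 140 ± 36.5 and 222 ± 14.1 CPM (SD, n = 3) gave -0.66 ± 0.23 SE on the log2 scale and did not pass (edgeR, adjusted p = 0.223). The gene (ENSG00000004478, chr12:2794953-2805423, plus strand) has 51.1% GC, and 9.07% of its 50-base stretches are shared with overlapping genes on the other strand. After GC correction the value was -0.63 (adjusted p = 0.0111), and without both libraries numbered 2 it was -0.86 (adjusted p = 0.000111).

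AHSA1, which stimulates the ATPase of HSP90, had 103, 134 and 115 CPM against 151, 159 and 149 CPM, again without overlap (-0.38 ± 0.19 SE, adjusted p = 0.424). STIP1, the adaptor between HSP70 and HSP90, had 323, 373 and 346 CPM against 408, 384 and 376 CPM. Its groups were apart by a small margin, at -0.17 ± 0.18 SE. After GC correction STIP1 had 388, 310 and 376 CPM against 426, 349 and 367 CPM, so the groups overlapped. CDC37 had 283, 475 and 339 CPM against 368, 419 and 377 CPM, with the controls inside the spread of the overexpression libraries (-0.08 ± 0.23 SE). PTGES3, the p23 co-chaperone, had -0.16 ± 0.23 SE, FKBP5, the counterpart of FKBP4, had -0.21 ± 0.27 SE, and CHORDC1, a zinc-binding HSP90 partner, had 0.28 ± 0.47 SE.

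**Figure D4:**
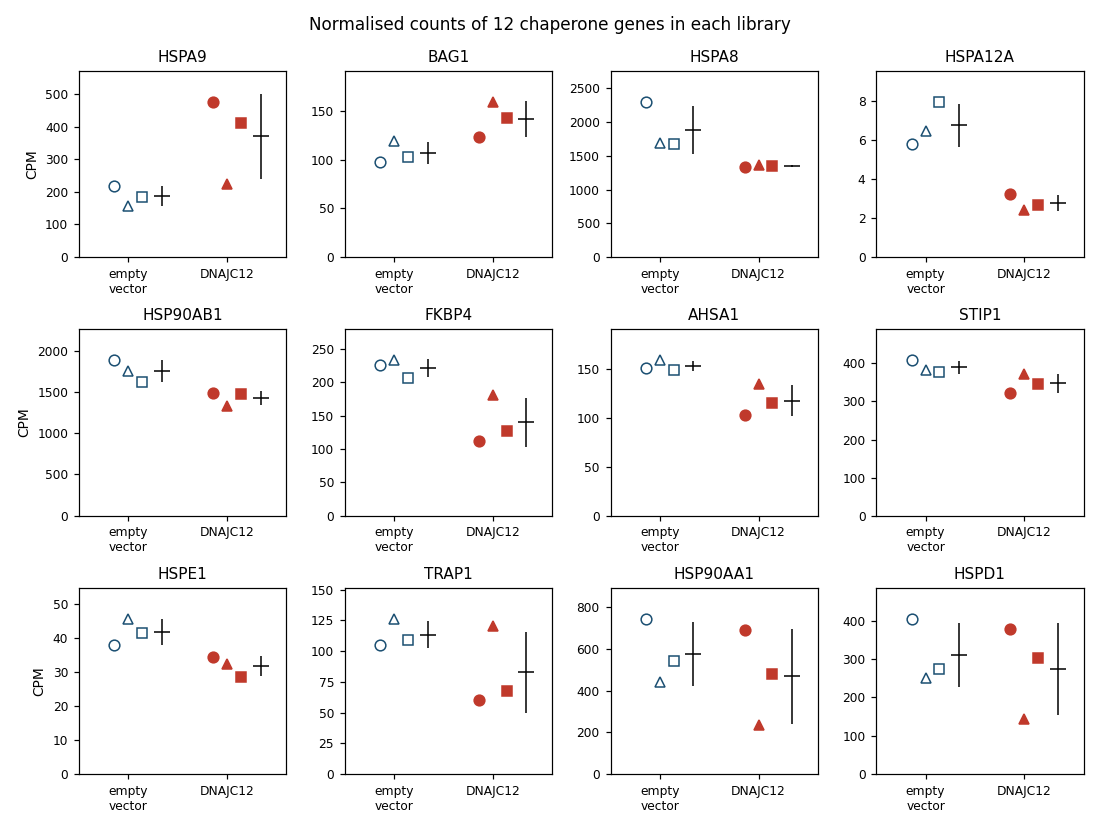
CPM of 12 members in each library, axes from 0; open blue symbols are empty vector and red symbols overexpression libraries, the shape gives the replicate, and the dash with bar is the mean and SD of 3. HSPA9 and BAG1 lie above the controls, HSPA8, HSPA12A, HSP90AB1, FKBP4, AHSA1, STIP1 and HSPE1 below them, and the other 3 overlap.

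Among the BAG proteins, HSPBP1, STUB1 and ST13, which act with HSP70, only BAG1 had groups that did not overlap. BAG1, an exchange factor that links HSP70 to the proteasome, had 123, 160 and 143 CPM with DNAJC12 and 97.8, 119 and 103 CPM without. Every overexpression library was above every control, at 0.41 ± 0.20 SE on the log2 scale (edgeR, adjusted p = 0.401). After GC correction the values were 120.07, 165 and 143 against 95.7, 120.11 and 103 CPM. There overexpression replicate 1 lay just under empty vector replicate 2. BAG1 overlaps SPINK4 on the other strand. BAG2, BAG3, BAG4 and BAG5 overlapped between the groups, with log2 fold changes of 0.06, -0.20, -0.02 and 0.30. The exchange factor HSPBP1 (0.29), the ubiquitin ligase STUB1 (0.20) and the adaptor ST13 (0.20) overlapped as well. STUB1 had 77.0, 151 and 96.1 CPM against 69.7, 110 and 102 CPM, with replicate 2 highest in each group, and it shares 34.3% of its stretches with JMJD8 on the other strand. BAG3, which HSF1 is known to induce, had 68.5, 111 and 80.7 CPM against 91.2, 111 and 97.2 CPM.

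The small heat shock proteins and the heat shock factors gave no separation. HSPB1 had 221, 459 and 303 CPM with DNAJC12 and 248, 346 and 322 CPM without (0.10 ± 0.28 SE), and HSPB8, the partner of BAG3, had 8.92, 11.7 and 8.20 CPM against 11.1, 11.7 and 8.90 CPM (-0.14 ± 0.27 SE). HSF1 had 125, 234 and 154 CPM against 129, 170 and 151 CPM (0.19 ± 0.26 SE). HSF2, a related factor, had 17.2, 6.70 and 13.7 CPM against 17.4, 10.1 and 13.6 CPM (-0.12 ± 0.37 SE). GC-rich HSPB1 and HSF1 were highest, and AT-rich HSF2 lowest, in replicate 2 of each group. The 6 genes with a run of 3 heat shock units, printed above, had a median log2 fold change of -0.24, from -0.49 for HSPA8 to 0.28 for CHORDC1. Of these 6, 5 were below 0, against 45.1% of all tested genes. That count is not stable: without overexpression replicate 2, HSP90AA1 was 0.019 and HSPD1 0.14. HSPA6 was 0.0034 without overexpression replicate 3. The 24 tested members with a window but no such run had a median of -0.10, with 13 below 0. The 7 tested rows without a window had a median of -0.02, with 4 below 0. No row of any of these kinds was called by the edgeR test. This split follows the exact letters in these windows and does not divide HSF1 targets from other genes. HSPA1A, HSPA1B and HSPB1, which had the pair alone, fall among the 24. So does HSPE1, although the HSPD1 run overlaps its exon.

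Other genes of the chaperone network were listed by name. Of 48 genes, 46 were tested, and edgeR called 0 of them (against 1.25% of all genes). DESeq2 called 0 of 48 (against 3.13%). Without adjustment, 3 had an edgeR p under 0.05 (6.52%, against 14.1% of all genes). All 3 were higher with DNAJC12, against 7.25% of all genes higher and 6.86% lower. The 3 were TIMM44, which tethers HSPA9 to the mitochondrial import channel (0.57 ± 0.22 SE, adjusted p = 0.274), PFDN2, a prefoldin subunit (0.45 ± 0.19 SE, adjusted p = 0.333), and LONP1, the main protease of the mitochondrial matrix (0.57 ± 0.25 SE, adjusted p = 0.342). TIMM44 had 98.6, 145 and 107 CPM against 69.7, 80.2 and 85.4 CPM, without overlap. Over the whole list, 30 of 46 log2 fold changes were below 0 (65.2%, against 45.1% of all genes). Of 8 subunits of TRiC, the cytosolic folding chamber, 7 were below 0 with a median of -0.13, and of 6 prefoldin subunits, 5 were. So were 11 of 15 other HSP90 co-chaperones and 2 of 4 other heat shock genes. Most of the remaining genes lay above 0: 4 of 6 other HSP70 partners and 4 of 7 mitochondrial partners and proteases. After GC correction, TIMM44, PFDN2 and LONP1 were called higher and the TRiC subunits CCT2, CCT3 and TCP1 and the protease CLPP lower, 15.2% of the list against 17.3% of all genes.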

How the data were processed

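Gene counts of 6 RNA sequencing libraries, 3 per group per the labels, were analysed. The authors deposited whole-number counts per gene and FPKM; the submitters' processing notes name HISAT2 2.0.5 and hg19. The identifiers and coordinates of all 58735 genes equal GENCODE 29 on GRCh38, so coordinates are given as GRCh38. No source used here gives the counting program or whether it used strand. Each deposited FPKM equals the count divided by gene length and by a library depth that was 0.854 to 1.10 times the total count.

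Counts were tested with edgeR 4.0.16 (quasi-likelihood, TMM, filterByExpr with minimum count 10 and total 15, robust) in R 4.3.3, with p-values adjusted by Benjamini-Hochberg over 14520 genes at a threshold of 0.05. An SE is the log2 fold change divided by the square root of F. Genes not tested held 0.129% of counts. With 3 libraries per group, exact permutation p-values start at 0.1, so none was computed. Alternatives used DESeq2 1.42.0, limma 3.58.1 on log2 FPKM, other filters, a replicate block, left-out libraries, a GC correction (loess of log2 CPM on transcript GC content, span 0.3) and the sum of HSPA1A and HSPA1B. Tested on simulated data (14307 genes, 200 changed), the edgeR step found 29.9% of 2-fold and 99% of 4-fold changes, and 6.77% of its calls were false. Shared stretches are 50-base words of the longest GENCODE 29 transcript that occur in transcripts of other genes.

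The members, lists, motifs and alternatives were chosen with earlier results of these data known. Library values are given for members with an unadjusted p under 0.05, members whose groups do not overlap and the 2 most abundant members of each role. TRAP1, HSPH1, STUB1, BAG3, HSPA6, HSPA1A and the HSPA9 to HSPD1 ratio were added after their values were seen. Of the network genes, the 3 with the smallest p are named, and those called after GC correction were added. A planned comparison of protein sequences was not run.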

Additional observations from a re-analysis of the deposited data

How the results depend on the processing

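Few counts lie behind HSPA2 (3 to 29 per library), HSPA6 (21 to 38) and CRYAB (0 to 3), which limits their precision. Of 660 member values over 18 alternatives, 578 kept their direction and side of the threshold, 39 newly passed it and 43 changed sign. HSPA9, HSPA8, FKBP4 and HSP90AB1 kept their direction under all 18. Where a value moved, the cause was not tested. Against 0 members called higher and 0 lower by edgeR, the counts were 1 and 1 by DESeq2, 1 and 1 with no filter on low counts (1.34% and 1.18% of all genes), 1 and 4 without both libraries numbered 2, and 2 and 6 with GC correction. Leaving out 1 library gave 0 to 2 higher and 0 to 4 lower. All came from the fit without overexpression replicate 2 (together 16.2%, against 22.5% of all genes). The members' median ran from -0.27 (without overexpression replicate 1) to -0.037 (without overexpression replicate 3). Network genes went from 0 and 0 to 2 and 3 without both libraries numbered 2 (together 10.9%, against 18.7% of all genes). With GC correction they were 3 and 4 (15.2%, against 17.3%). With 1 library left out they were 0 to 3 and 0 to 7, the most without overexpression replicate 2 (21.7%, against 22.5%).

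The labels number replicates alike in both groups, but same-numbered libraries deviated together with correlations of 0.448, 0.585 and 0.0335, so the number was not taken to pair them; replicate 3 of the overexpression group correlated better with empty vector replicate 1 (0.225). With the number as a replicate block, 1 member was higher (HSPA9) and 3 were lower (FKBP4, TRAP1 and HSPA12A), against 6.96% and 6.38% of all genes, and 2 network genes were higher. GC correction with the block gave 3 member rows higher (8.11%, against 10.7% of all genes) and 9 lower (24.3%, against 10.4%). The 9 include both overlapping HSPA14 rows, whose division is uncertain, so they are fewer genes than rows. Of the network genes this fit gave 3 higher (6.52%) and 4 lower (8.70%).

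These log2 values had the opposite sign to the report's: BAG2 was -0.013 with the block, -0.19 with GC correction with or without the block, -0.010 by limma on log2(FPKM + 1) with or without a filter and -0.025 by limma on log2(FPKM + 0.1). With GC correction, without and with the block, CHORDC1 was -0.016 and -0.024, HSPH1 -0.070 and -0.11, HSPA13 -0.063 and -0.060, and HSPA4 -0.049 and -0.062. By limma on log2(FPKM + 0.1), HSPH1 was -0.014 and HSPA4 -0.0058. Without both libraries numbered 2, HSPB1 was -0.13, HSF1 -0.014 and BAG4 0.16. With 1 library left out, values crossed 0 in these ranges: HSF2 -0.42 to 0.17, HSP90AA1 -0.70 to 0.019, STUB1 -0.12 to 0.38, CDC37 -0.32 to 0.062, HSPB1 -0.22 to 0.31, CHORDC1 -0.11 to 0.64, PTGES3 -0.27 to 0.011, BAG2 -0.24 to 0.32, HSPH1 -0.35 to 0.59, HSPBP1 -0.053 to 0.48, HSPD1 -0.48 to 0.14, HSPA13 -0.17 to 0.55, BAG4 -0.34 to 0.22, HSPA4 -0.26 to 0.39, HSPA6 -0.37 to 0.0034, HSF1 -0.10 to 0.36.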
